A study of Homo sapiens with 6 samples.

Results

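The genes described here encode restraints and nutrient sensors of mTORC1, the kinase complex that promotes protein synthesis and blocks autophagy when growth factors and amino acids are present. They are DDIT4, SESN1, SESN2, SESN3, TSC1, TSC2, DEPTOR, RRAGC, RRAGD and FNIP1, chosen by symbol from the deposited table. All 10 had a row among the 27451 gene rows, and all 10 were among the 12294 genes tested. The cells were MDA-MB-231, a human breast cancer cell line. There were 3 libraries of cells given the vehicle DMSO and 3 of cells given 2 µM of H182, both for 2 h. The series title places H182 among azetidine-based inhibitors of the transcription factor STAT3. Whether the 3 libraries of a group came from separate cultures is not given, so the p-values rest on a spread between libraries that may be technical.

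As background, mTORC1 is switched on at the lysosome by the small GTPase RHEB, and the TSC complex, built on TSC1 and TSC2, keeps RHEB in its inactive form. DDIT4, also called REDD1, is a stress-induced protein that acts through the TSC complex to lower mTORC1 activity. Amino acids act through the Rag GTPases, in which RRAGC or RRAGD pairs with RRAGA or RRAGB to bring mTORC1 to the lysosome. Sestrins restrain this branch by binding the GATOR2 complex, and SESN2 is known as a leucine sensor. FNIP1 and its partner folliculin act on RRAGC and RRAGD, and DEPTOR binds mTOR itself. DDIT4 and SESN2 are known for rapid induction by stress, through transcription factors such as ATF4.

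Values are TPM, the length-corrected share of a library's transcripts that the authors' table gives each gene, scaled to 1000000 in all. A TPM value is a share, so a lower number of transcripts and a rise of other transcripts cannot be told apart. Tests were made with limma on log2(TPM + 1), a scale that understates the change of genes at low TPM. Adjusted p-values are over all genes tested, and "rose" and "fell" mean an adjusted p under 0.05. The median gene changed by -0.09 on this scale. With median-of-ratios scaling, which brought that median to 0.00, other calls were made for some genes. Counts and values with that scaling are given beside those in TPM for the members and for each list whose counts differ.

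Of the 10 genes, 3 rose, none fell and 7 did not pass (limma; at an unadjusted p under 0.05 also 3 and 0). Among all genes tested, 5.30% rose and 18.7% fell. The median log2 change of the 10 genes was 0.08. DDIT4 rose 46.8-fold and SESN2 10.9-fold in mean TPM, while SESN3 rose 1.99-fold from a low level. Of these, DDIT4 and SESN2 rose by at least 1 on the log2 scale, as did 1.30% of all genes. The genes of the TSC complex, the Rag GTPases, FNIP1, DEPTOR and SESN1 did not pass, with differences in mean TPM between -28.6% (DEPTOR) and 6.64% (RRAGC). With median-of-ratios scaling the count was also 3 higher and none lower, beside 7.88% and 6.78% of all genes. The TPM values of the groups did not overlap in 4 members, of which DDIT4, SESN2 and SESN3 were higher in H182 (8.67% of all genes) and SESN1 lower (32.7%).

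The bases before the start sites of the 3 genes that rose are shown first, because these are the members that passed the test. The sequences are from RefSeq on GRCh38.p14, 5′ to 3′ on the strand of the gene. Each ends just before the earlier of the RefSeq and GENCODE start sites. Capitals mark the CCAAT box (letters CCAAT on either strand, so ATTGG on the strand shown).
DDIT4, chr10:72273674-72273919, plus strand: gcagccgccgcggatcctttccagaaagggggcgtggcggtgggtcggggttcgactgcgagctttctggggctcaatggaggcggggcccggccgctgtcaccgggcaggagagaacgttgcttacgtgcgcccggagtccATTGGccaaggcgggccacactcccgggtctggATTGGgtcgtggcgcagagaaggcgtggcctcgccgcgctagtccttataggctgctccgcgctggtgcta
SESN2, chr1:28259268-28259517, plus strand: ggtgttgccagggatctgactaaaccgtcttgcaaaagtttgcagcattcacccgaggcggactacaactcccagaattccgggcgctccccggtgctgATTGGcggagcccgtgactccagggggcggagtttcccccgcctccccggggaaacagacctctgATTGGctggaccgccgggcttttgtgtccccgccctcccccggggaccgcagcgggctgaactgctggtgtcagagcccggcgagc
SESN3, chr11:95232542-95232725, minus strand: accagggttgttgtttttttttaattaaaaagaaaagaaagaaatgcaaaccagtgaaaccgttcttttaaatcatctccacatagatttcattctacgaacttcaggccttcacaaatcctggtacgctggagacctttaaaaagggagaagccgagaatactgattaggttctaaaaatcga

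The upstream windows of DDIT4 and SESN2 each held 2 CCAAT boxes, both with ATTGG on the strand of the gene. In DDIT4 they began 108 and 75 bases before the RefSeq start, and in SESN2 151 and 86 bases before it. Of 35116 RefSeq promoters, 32.0% held the box in the 250 bases before the start, and 9.53% held at least 2. The printed SESN3 stretch held none. The box was not particular to the genes that rose. Windows of RRAGC, FNIP1 and SESN1, which did not pass, also held it, so 5 of the 8 members searched had it. G and C made up 68.8% of the 250 bases of DDIT4, 65.6% of those of SESN2 and 42.8% of those of SESN3, against a median of 58.0% over all promoters. Among members that did not pass, the share was 73.6% for RRAGC, 69.6% for FNIP1 and 62.0% for TSC1. It was 71.6% and 77.2% in the windows of TSC2 and 60.4% to 74.4% in those of SESN1.

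Other motifs were searched on both strands of the same 250 bases for the 8 members with a RefSeq promoter used here. ACGTG, the core of the hypoxia response element, began 125 bases before the start of DDIT4, and 18.5% of all promoters held it. It also lay in RRAGC, FNIP1 and TSC2, there inside the E-box CACGTG, which 6.34% of promoters held. TSC2 held the longer TCACGTGA, the core of the CLEAR element bound by TFEB (0.854% of promoters), overlapping its E-box. TGATGNAA, an ATF4 and C/EBP composite element, was found in TSC2 alone among these genes (3.14% of promoters). The heat shock element GAANNTTC (5.78%), the cAMP response element TGACGTCA (1.65%) and the TATA box TATAAA (10.7%) were not found in these windows. A match describes letters only.

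DDIT4 (ENSG00000168209.4, chromosome 10, 72273920 to 72276036, GRCh38, plus strand) is a short gene with up to 3 exons per transcript in GENCODE 29. It spans 2117 bases, against a median of 33203 for the protein-coding genes tested. Its level was 17.7, 19.3 and 19.6 TPM in the DMSO libraries and 854, 852 and 942 TPM in the H182 libraries. The groups lay far apart, and the 3 libraries of each were close to each other. The mean went from 18.9 ± 1.04 to 882 ± 51.4 TPM (SD, n = 3 each), a log2 change of 5.48 (SE 0.056, limma adjusted p = 4.67e-12). The change ranked 4 among all genes tested, of which 0.220% changed by 3 or more on the log2 scale. DDIT4 moved from percentile 44.5 of the tested genes by TPM level in DMSO to percentile 98.6 in H182. Its log2 change with median-of-ratios scaling was 5.58 (limma adjusted p = 1.37e-11). The gene overlaps the exons of the antisense gene DDIT4-AS1, which was not analysed here. Whether reads were counted by strand is not given in the sources used here.

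SESN2 (ENSG00000130766.4, chromosome 1, 28259527 to 28282491, plus strand, 10 exons) had 6.90, 7.71 and 7.55 TPM in DMSO. In H182 it had 76.9, 80.4 and 83.3 TPM, with every library far above every DMSO library. The mean went from 7.39 ± 0.429 to 80.2 ± 3.21 TPM (log2 change 3.28, SE 0.069, limma adjusted p = 9.81e-10), the rise of rank 20 among all genes tested. By level it moved from percentile 24.3 to percentile 81.2. With median-of-ratios scaling the log2 change of SESN2 was 3.37 (limma adjusted p = 1.89e-09). Its gene length, 22965 bases, lay at percentile 38.9 of the protein-coding genes tested, so only DDIT4 of this pair is an unusually short gene.

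SESN3 (ENSG00000149212.10, chromosome 11, 95165513 to 95232541, minus strand, up to 10 exons), a further sestrin gene and a known target of FOXO factors, was near the lower limit of the tested range. Its level was 1.22, 1.28 and 1.21 TPM in DMSO and 2.38, 2.64 and 2.36 TPM in H182. The groups did not overlap, and the difference, 1.22 TPM, was small in absolute terms. The log2 change was 0.63 (SE 0.14, limma adjusted p = 0.00976) on the scale with a pseudocount of 1, and 0.94 with a pseudocount of 0.1. With median-of-ratios scaling and a pseudocount of 1 it was 0.69 (limma adjusted p = 0.00786). An antisense gene, AP000787.1, overlaps its exons and was not analysed here.

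SESN1 (ENSG00000080546.13, chromosome 6, 108986437 to 109094819, minus strand, up to 10 exons), the third sestrin gene, did not pass. It had 4.41, 4.4 and 4.34 TPM in DMSO and 4.30, 3.73 and 3.79 TPM in H182. Every H182 library was below every DMSO library, but the nearest values differed by little. Its log2 change was -0.13 (95% interval -0.38 to 0.13, limma adjusted p = 0.450) and -0.04 with median-of-ratios scaling. An antisense gene, AL390208.1, overlaps the exons of SESN1 and was not analysed here.

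**Figure D1:**
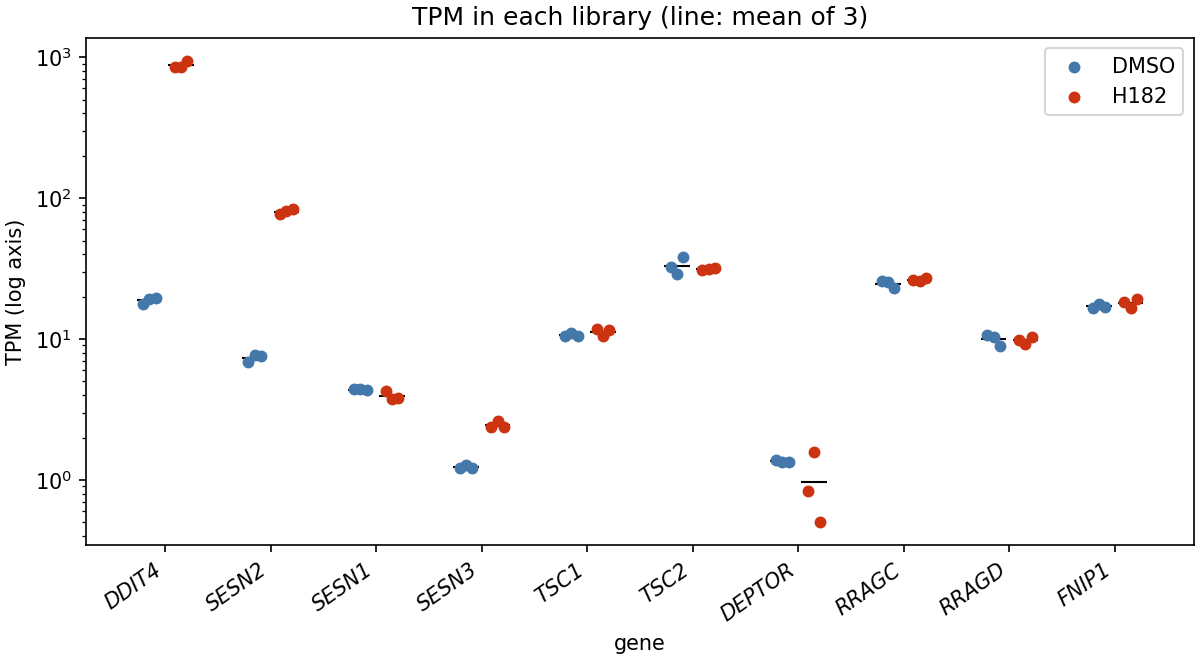
TPM of the 10 genes (log axis) in each of the 3 DMSO and 3 H182 libraries, with a line at each group's mean. DDIT4 goes from about 18.9 to 882 TPM and SESN2 from 7.39 to 80.2 TPM, while the points of TSC1, TSC2, RRAGC, RRAGD and FNIP1 overlap between groups.

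The make-up of sestrin mRNA differed between the groups. SESN2 made up 55.1%, 57.6% and 57.6% of the summed TPM of the 3 sestrin genes in DMSO and 92.0%, 92.7% and 93.1% in H182. The share of SESN1 went from 33.7 ± 1.28% to 4.56 ± 0.507%, and that of SESN3 from 9.51 ± 0.253% to 2.84 ± 0.202% although its own TPM rose. The sum of the 3 genes was 13 ± 0.438 TPM in DMSO and 86.6 ± 2.95 TPM in H182. A ratio of 2 genes within a library does not depend on the scaling of that library. The SESN2 to SESN1 ratio was 1.56, 1.75 and 1.74 in DMSO and 17.9, 21.6 and 22 in H182, a 12.1-fold difference of geometric means. The SESN3 to SESN1 ratio lay between 0.277 and 0.291 in DMSO and between 0.553 and 0.708 in H182. Neither pair's groups overlapped. With 3 libraries against 3 the exact two-sided permutation p was 0.1 for each, the smallest this design allows, and 0.14 after Benjamini-Hochberg adjustment over the 7 pairs compared.

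**Figure D2:**
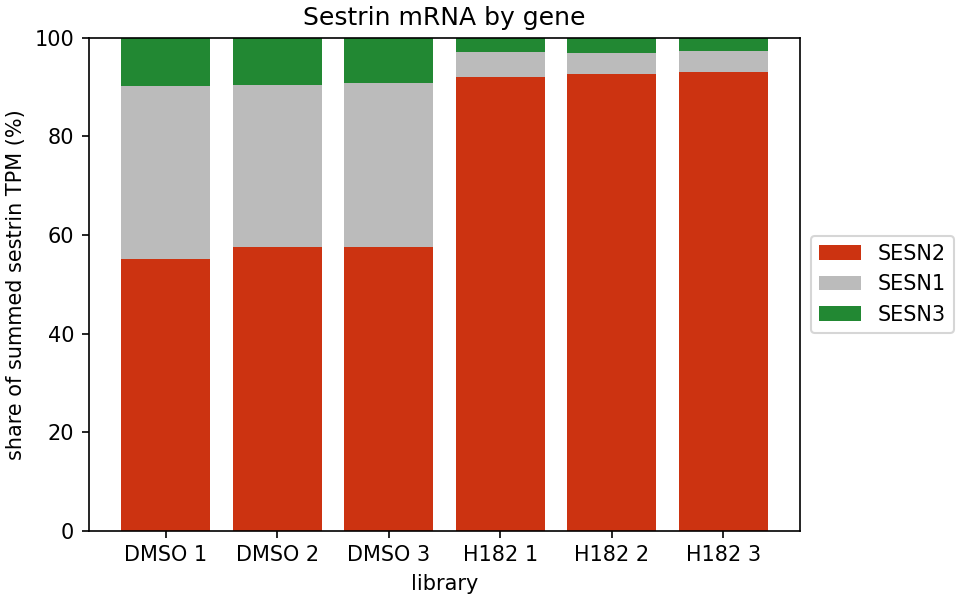
Share of the summed TPM of SESN1, SESN2 and SESN3 held by each gene (%), 1 bar per library. SESN2 takes 55.1% to 57.6% in the DMSO libraries and 92.0% to 93.1% in the H182 libraries.

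The ratio of DDIT4 to SESN2 was 2.56, 2.5 and 2.60 in DMSO and 11.1, 10.6 and 11.3 in H182, a 4.31-fold difference (exact two-sided permutation p = 0.1, adjusted 0.14). Libraries of a group differed little in this ratio. DDIT4 held 14.6 ± 0.695% of the summed TPM of the 10 genes in DMSO and 82.7 ± 0.444% in H182. The other 8 genes, without DDIT4 and SESN2, summed to 103 ± 1.98 TPM in DMSO and 104 ± 2.81 TPM in H182.

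The TSC complex genes did not pass. TSC1 (chromosome 9, 132891348 to 132946874, minus strand, up to 23 exons), which stabilises the complex, had 10.5, 11.1 and 10.6 TPM in DMSO and 11.8, 10.6 and 11.6 TPM in H182. TSC2 (chromosome 16, 2047465 to 2089487, plus strand, up to 42 exons), the subunit that acts on RHEB, had 32.7, 28.9 and 38.0 TPM in DMSO and 31.1, 31.2 and 31.9 TPM in H182. The groups overlapped for both genes, and DMSO replicate 3 was the highest library for TSC2. The log2 change was 0.07 for TSC1 (95% interval -0.12 to 0.26) and -0.07 for TSC2 (95% interval -0.28 to 0.13). With median-of-ratios scaling the TSC1 value was 0.16 (adjusted p = 0.220) and the TSC2 value 0.03 (adjusted p = 0.875), so the sign for TSC2 depended on the scaling. TSC2 exons overlap those of NTHL1 and PKD1 on the opposite strand. The mean of PKD1 was 32.0 TPM in both groups, and that of NTHL1 went from 16.5 to 14.9 TPM. The TSC1 to TSC2 ratio overlapped between groups (exact two-sided permutation p = 0.4).

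DEPTOR (chromosome 8, 119873717 to 120050913, plus strand, up to 9 exons), the inhibitor that binds mTOR, was close to the limit of the test in level. It had 1.38, 1.34 and 1.34 TPM in DMSO and 0.830, 1.57 and 0.50 TPM in H182. The H182 libraries lay on both sides of the DMSO libraries, and their coefficient of variation was 56.7%, against 1.71% in DMSO. The log2 change was -0.30, with a 95% interval from -0.76 to 0.17, the widest of the 10 genes. Changes within that interval are compatible with these libraries. The value moved with single libraries, to -0.51 without H182 replicate 2 (limma adjusted p = 0.0979) and to -0.12 without H182 replicate 3 (adjusted p = 0.704), and to -0.57 with a pseudocount of 0.1 (adjusted p = 0.314). With median-of-ratios scaling it was -0.24.

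Among the Rag GTPase genes, RRAGC (chromosome 1, 38838198 to 38859823, minus strand, up to 7 exons) had 25.7, 25.4 and 23.1 TPM in DMSO and 26.2, 25.7 and 27.2 TPM in H182. RRAGD (chromosome 6, 89364636 to 89412270, minus strand, up to 7 exons), the closest relative of RRAGC, had 10.7, 10.4 and 8.94 TPM in DMSO and 9.84, 9.19 and 10.3 TPM in H182. Groups overlapped for both. The log2 change was 0.09 for RRAGC (95% interval -0.06 to 0.24) and -0.03 for RRAGD (95% interval -0.25 to 0.19). With median-of-ratios scaling they were 0.19 (95% interval 0.046 to 0.33, adjusted p = 0.0830) and 0.07 (adjusted p = 0.695), so the sign for RRAGD turned. FNIP1 (chromosome 5, 131641714 to 131797063, minus strand, up to 19 exons) had 16.6, 17.7 and 16.8 TPM in DMSO and 18.4, 16.7 and 19.2 TPM in H182, a log2 change of 0.08 (95% interval -0.09 to 0.26). With median-of-ratios scaling it was 0.18 (95% interval 0.015 to 0.34), which did not pass after adjustment over all genes (adjusted p = 0.143). Exons of RRAGC overlap those of AL139260.2 on the same strand, which was not analysed here. FNIP1 exons overlap those of AC008695.1, also on the same strand, with means of 0.2 TPM in DMSO and 0 TPM in H182. Across the 7 members that did not pass, the 95% intervals on the fold scale of TPM + 1 ran from 0.589 to 1.2, and from 0.769 to 1.2 without DEPTOR.

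RRAGA, the GTPase that RRAGC pairs with, fell from 56.1 ± 1.60 to 45.1 ± 0.390 TPM (log2 change -0.31, limma adjusted p = 0.00212). The RRAGC to RRAGA ratio was 0.467, 0.438 and 0.418 in DMSO and 0.580, 0.566 and 0.609 in H182, 1.33-fold higher without overlap (exact two-sided permutation p = 0.1, adjusted 0.14). The RRAGD to RRAGC ratio lay between 0.387 and 0.414 in DMSO and between 0.358 and 0.379 in H182, also without overlap and with the same p. The FNIP1 to FNIP2 ratio overlapped between groups (exact two-sided permutation p = 0.7).

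**Figure D3:**
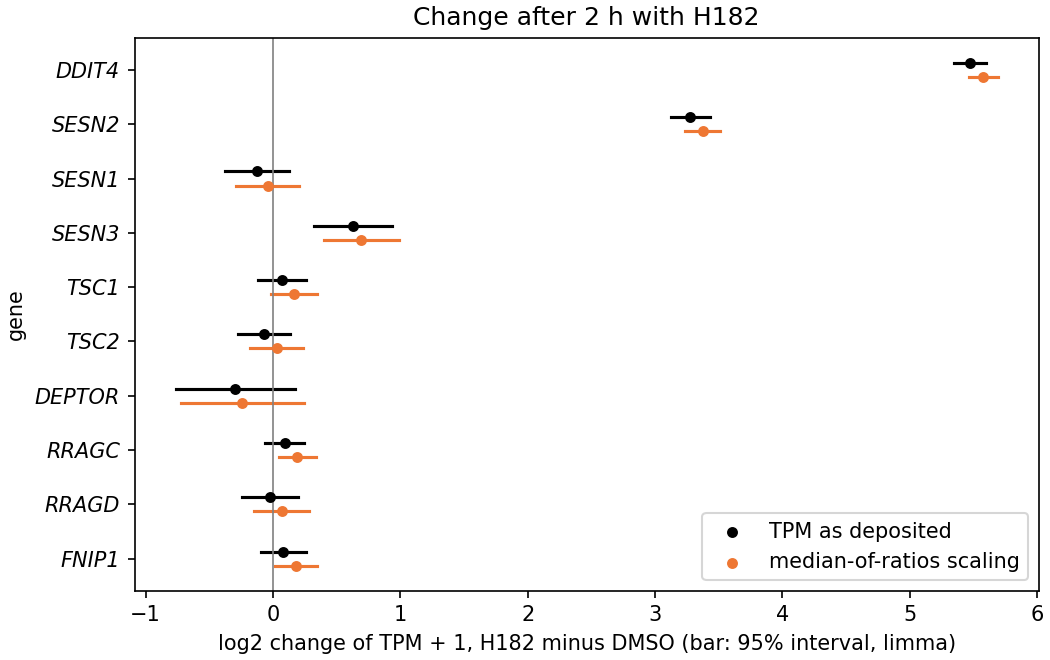
Log2 change of TPM + 1 (H182 minus DMSO) of the 10 genes with 95% intervals from limma, from TPM as deposited (black) and with median-of-ratios scaling (orange). The intervals of DDIT4, SESN2 and SESN3 lie above 0 with both. The DEPTOR interval is the widest with each, from -0.76 to 0.17 in TPM as deposited and from -0.72 to 0.24 with median-of-ratios scaling.

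The order of levels changed with treatment. In DMSO, TSC2 was highest, followed by RRAGC, DDIT4, FNIP1, TSC1, RRAGD, SESN2, SESN1, DEPTOR and SESN3. The ranges of DDIT4 and FNIP1 overlapped in DMSO, as did those of TSC1 and RRAGD. In H182, DDIT4 and SESN2 stood first and second, above TSC2 at 31.4 ± 0.439 TPM, and the order of TSC2, RRAGC, FNIP1, TSC1 and RRAGD below them was as in DMSO. No neighbouring ranges overlapped in H182. DEPTOR and SESN3 exchanged the last places.

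Other genes of the pathway were taken as 7 lists with 85 entries, of which 80 were tested. Of these, 5 rose (6.25%) and 17 fell (21.3%), close to the 5.30% and 18.7% of all genes. With median-of-ratios scaling 11 of the 80 were higher and 7 lower, beside 7.88% and 6.78% of all genes. The closeness therefore holds for the calls in TPM, and with that scaling the share of higher calls was above that of all genes. The median log2 change was -0.08, beside -0.09 for all genes.

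Of the mTOR complex subunits, none rose and 2 of 10 tested fell (limma; 0 and 2 also at an unadjusted p under 0.05). MAPKAP1, a subunit of mTORC2, fell from 201 ± 4.56 to 161 ± 6.54 TPM (log2 change -0.31). RPTOR, the subunit that recruits mTORC1 substrates, fell from 30.3 ± 1.89 to 23.5 ± 1.29 TPM (log2 change -0.35). Both passed with either scaling. Among the TSC partners, RHEBL1, a relative of RHEB, rose from 1.11 ± 0.140 to 3.61 ± 0.537 TPM (log2 change 1.12, limma adjusted p = 0.000737). Its libraries read 0.980, 1.10 and 1.26 TPM in DMSO and 2.99, 3.91 and 3.93 TPM in H182, so it stayed at a low level in both groups. RHEB itself, at 294 ± 7.89 and 273 ± 8.52 TPM, did not pass, and DDIT4L, the paralog of DDIT4, was below the filter at 0.533 and 0.707 TPM.

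Of 10 Rag, Ragulator and folliculin partner genes, none rose and 2 fell, RRAGA and LAMTOR1, a subunit of the Ragulator scaffold (log2 change -0.18). At an unadjusted p under 0.05 limma gave 2 higher and 2 lower. The LAMTOR1 call was lost with median-of-ratios scaling (adjusted p = 0.349), which instead called LAMTOR3, SLC38A9 and FLCN higher. None of the 7 genes of GATOR1 and KICSTOR passed in limma (0 higher and 1 lower at an unadjusted p under 0.05), and NPRL3 had the lowest p (log2 change -0.18, limma adjusted p = 0.0659). In the GATOR2 and sensor list, 1 of 10 rose and 3 fell (1 and 1 with median-of-ratios scaling). The gene that rose was BMT2 (SAMTOR, a sensor of S-adenosylmethionine), from 2.42 ± 0.122 to 6.98 ± 0.715 TPM (log2 change 1.22, limma adjusted p = 9.25e-05). Its lowest H182 library, at 6.45 TPM, was above its highest DMSO library, at 2.56 TPM. SEH1L, a GATOR2 subunit, fell by 0.33 on the log2 scale. CASTOR1, an arginine sensor, fell from 2.45 ± 0.654 to 1.23 ± 0.322 TPM (log2 change -0.62, limma adjusted p = 0.0405), but with median-of-ratios scaling it did not pass (adjusted p = 0.0854).

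Of 24 tested growth factor and energy inputs, 2 rose and 6 fell, and with median-of-ratios scaling 2 were higher and only IRS1 was lower. The insulin receptor substrates moved apart. IRS1 fell from 37.1 ± 0.649 to 27.3 ± 1.32 TPM (log2 change -0.43), and IRS2 rose from 19.9 ± 0.306 to 26.5 ± 2.04 TPM (log2 change 0.39). Both passed with either scaling. TRIB3, a stress-induced pseudokinase that binds AKT, also rose (log2 change 0.34). PIK3R2 fell by 0.20 on the log2 scale in TPM only. Of 16 substrates and outputs, 1 rose and 4 fell in TPM, whereas with median-of-ratios scaling 4 were higher and 2 lower, so the balance of calls turned with the scaling. EIF4EBP2, a repressor of translation that mTORC1 phosphorylates, went from 33.9, 35.3 and 33.6 TPM in DMSO to 19.2, 18.3 and 19.3 TPM in H182. That fall (log2 change -0.82, limma adjusted p = 1.46e-05) was the largest on this scale among the pathway genes tested. In mean TPM, CASTOR1 fell further (ratio of H182 to DMSO 0.501, against 0.552 for EIF4EBP2). The paralog of EIF4EBP2, EIF4EBP1, was at 153 TPM in both groups. EIF4E, the cap-binding protein that these repressors hold, fell by 0.27, and LARP1 by 0.21 on the log2 scale, the latter not with median-of-ratios scaling. The gene that rose was ULK1, the autophagy kinase that mTORC1 inhibits (log2 change 0.45, limma adjusted p = 0.0340).

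**Figure D4:**
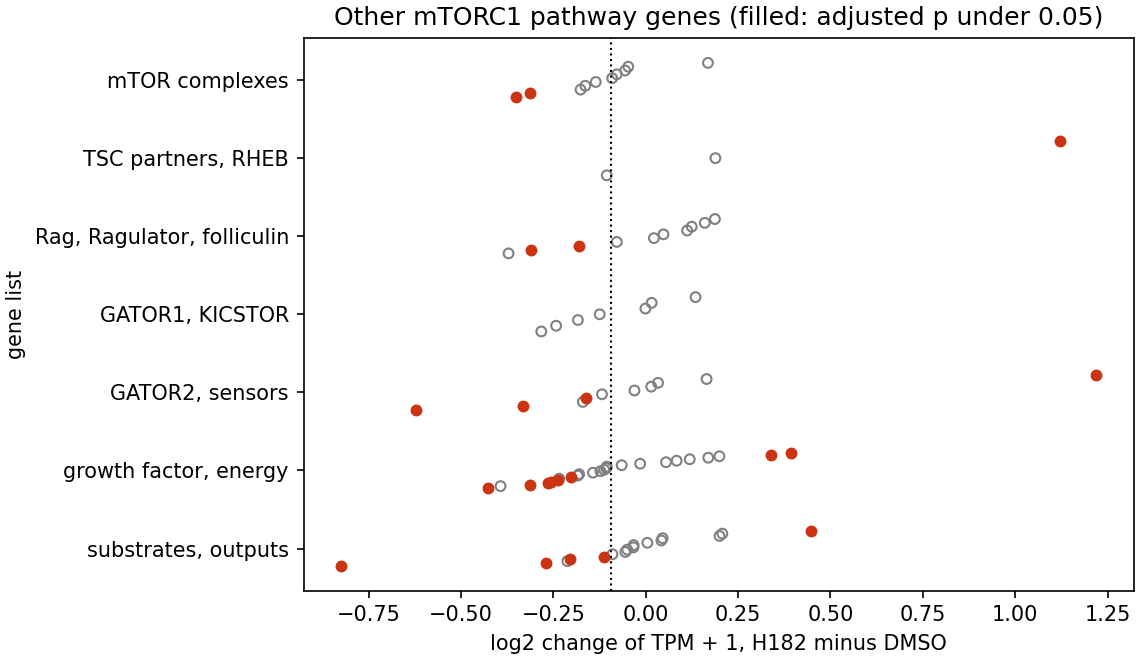
Log2 change of TPM + 1 (H182 minus DMSO) of the tested genes in 7 lists of other mTORC1 pathway genes, 1 point per gene, filled where the adjusted p is under 0.05, with a dotted line at the median of all genes (-0.09). The points farthest right are BMT2 (1.22) and RHEBL1 (1.12), and the point farthest left is EIF4EBP2 (-0.82).

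Because some of the members are known targets of stress-responsive regulators, other known targets of the same regulators were listed beside them. The lists were chosen with earlier results of these data known, so their counts do not test a regulator. Among all genes tested, 5.30% rose and 18.7% fell in TPM. With median-of-ratios scaling 7.88% were higher and 6.78% lower. Of 12 tested targets of ATF4, 8 rose and 1 fell (9 and 0 with median-of-ratios scaling), with a median log2 change of 0.48. The lowest p-values were those of ATF3 (log2 change 4.62), CHAC1, a glutathione-degrading enzyme (4.10), and CEBPB (2.00). On the same scale DDIT4 was at 5.48 and SESN2 at 3.28. Of 11 tested targets of HIF, the hypoxia factor, 4 rose and 1 fell (median 0.26), and with median-of-ratios scaling 6 were higher and none lower. The peptide hormone gene ADM (1.66), ANKRD37 (1.98) and VEGFA (0.69) had the lowest p-values on that list. PDK1 (0.05), also a HIF target, did not pass with either scaling, and BNIP3 (0.04) did not pass in TPM but did with median-of-ratios scaling (0.15, adjusted p = 0.0460).

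Of 6 tested targets of the glucocorticoid receptor, another known inducer of DDIT4, 4 rose and none fell (median 1.64; limma, 4 and 0 also at an unadjusted p under 0.05). They were DUSP1 (5.03), SGK1 (2.57), TSC22D3 (2.55) and PER1 (0.73), while FKBP5 (-0.06) did not pass. RRAGC, RRAGD and FNIP1 are known targets of TFEB and TFE3, the factors that mTORC1 keeps out of the nucleus. Of 8 other tested targets of these factors, 2 rose, SQSTM1 (1.01) and GABARAPL1 (1.0), and CTSD (-0.12) fell. With median-of-ratios scaling 3 of the 8 were higher, FLCN among them, and none lower. All of these lists come from the same 6 libraries, and the activity of a regulator was not measured.

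**Figure D5:**
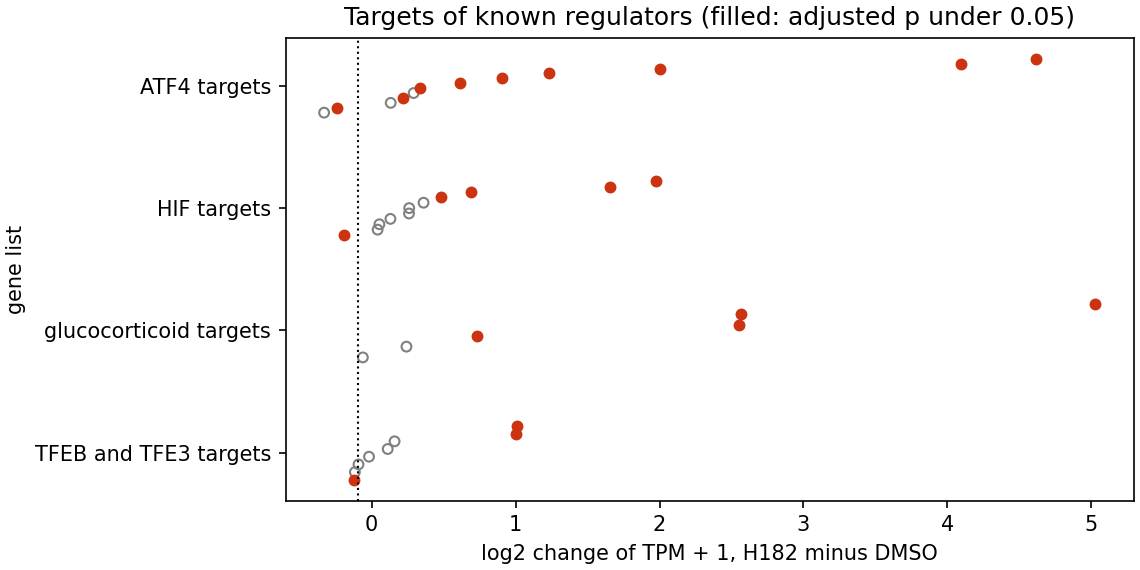
Log2 change of TPM + 1 (H182 minus DMSO) of tested targets of 4 regulators, without the 10 members, filled where the adjusted p is under 0.05, with a dotted line at the median of all genes (-0.09). The ATF4 list reaches 4.62 (ATF3) and the glucocorticoid list 5.03 (DUSP1).

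The genes with the pattern most like each strongly raised member were found by the Euclidean distance between their 6 values of log2(TPM + 1), each less its own DMSO mean. With 2 groups of libraries this measure mostly reflects the size of the change. For DDIT4 the nearest gene was HMOX1, heme oxygenase, at a distance of 0.07 (10.8 ± 0.635 to 508 ± 26.9 TPM). Then came the nuclear receptor gene NR4A2 at 0.76 and the phosphatase gene DUSP1 at 0.80. For SESN2 they were TNFSF9, the ligand of a lymphocyte costimulatory receptor (0.17, from 2.60 ± 0.228 to 33.5 ± 0.832 TPM), the noncoding RNA NEAT1 (0.23) and C11orf96 (0.29).

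The depth of the libraries is unknown, because TPM was scaled to a fixed total in each, so no counting intervals are given. The line's markers VIM, CD44, PLAU, AXL, CAV1 and KRT18 were present, at 208 to 4051 TPM over all libraries. ESR1 and PGR, receptors that the line lacks, were at 0.0600 TPM or below, and ERBB2 at 24.9 to 29.4 TPM. The leucocyte markers summed to 145 to 158 TPM in DMSO and 138 to 142 TPM in H182, nearly all of it CD68, with PTPRC at 1.07 TPM or below and CD3E at 0.0700 TPM or below. The endothelial markers summed to 0.210 to 0.510 TPM in DMSO and 0.0600 to 0.140 TPM in H182, and the fibroblast markers to 7.07 to 8.49 TPM, nearly all of it COL1A1. The line's own 6 markers summed to 6761 to 6905 TPM in DMSO and 5738 to 6089 TPM in H182. The part of these shifts in the results above was not tested.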

How the data were processed

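Per the labels' protocols, poly-A RNA was made into libraries by a stranded Illumina kit. The authors deposited TPM per gene and library, which sum to 1000000 in each. STAR 2.5.0, RSEM 1.2.25 and GRCh38 are named in the submitters' processing notes. No annotation, trimming or strand setting is given in the sources used here. Of 27567 rows, 92 spike-in rows, all at 0, and 24 second rows of genes shared by X and Y were left out.

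Genes whose mean over the 6 libraries reached 1 TPM were tested on log2(TPM + 1) with limma 3.58.1 in R 4.3.3 (empirical Bayes with trend, two-sided) and Benjamini-Hochberg adjustment, threshold 0.05. The procedure was tested on simulated data. Ratios within a library were tested exactly over permutations (SciPy 1.17.1). Coordinates are from GENCODE 29 and promoters from RefSeq (GRCh38.p14), matched by symbol. The 10 members and all lists were chosen with earlier results of these data known. Named genes were the members, up to 3 genes with the lowest p among those passing per list (or the lowest p where none passed), and the 3 nearest in pattern to DDIT4 and SESN2. A few results are not reported here. Other genes were named after their values were seen. Alternatives covered pseudocount, filter, scaling, trend, library weights, a replicate block and leaving out each library. Figures were drawn with matplotlib 3.10.9.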

Additional observations from a re-analysis of the deposited data

How the results depend on the processing

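In all 15 alternatives to the test, 3 members were called higher and none lower, except that a mean of at least 5 TPM left SESN1, SESN3 and DEPTOR untested and so called 2. Over the alternatives in which it was tested, the log2 change ran from 5.43 to 5.58 for DDIT4, from 3.23 to 3.42 for SESN2 and from 0.59 to 0.94 for SESN3 (limma adjusted p from 0.000818 to 0.0386). Over all genes, 2955 were called (651 higher, 2304 lower). With median-of-ratios scaling 1802 were called, 969 higher and 833 lower, and with quantile normalization 1262 were lower. Leaving out 1 library gave 1947 to 2758 calls, 528 to 587 higher and 1396 to 2205 lower. The fewest came without DMSO replicate 2, and without H182 replicate 2 there were 1478 lower calls. The cause was not tested.

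The signs of 2 genes that did not pass turned. RRAGD was at 0.067 with median-of-ratios scaling, at 0.022 with quantile normalization, and between -0.098 and 0.017 with 1 library left out. TSC2 was at 0.029 and 0.0074 with those scalings, and between -0.16 and 0.028 with 1 library left out. With log2(TPM + 1) in place of plain ratios, the difference of the SESN2 to SESN1 ratio was 3.40 in place of 3.60, that of SESN3 to SESN1 0.75 in place of 1.15, and that of DDIT4 to SESN2 2.20 in place of 2.11, by construction of the pseudocount. Same-numbered libraries of the 2 groups did not deviate together (r of -0.01, 0.00 and -0.04 across genes). Whether the numbers pair them by design is not given. With the replicate block 2684 genes were called, and the same 3 members (SESN3 at adjusted p = 0.0234).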
